A study of Homo sapiens with 9 samples.

Results

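Antigen presentation and major histocompatibility complex (MHC) genes were followed as a set of 38 genes in RNA sequencing of the human leukaemia line SKNO-1, which carries the AML1-ETO fusion. Members were found by gene symbol in the count files. Each was represented by the RefSeq transcript row with the highest total over all samples, as was every one of the 25680 symbols. Of the 38 members, 24 passed the filter on low counts, as did 14199 genes in all. There were 9 samples in 3 groups of 3. One group was labelled EV, which served as the control and which the labels do not explain further. The other 2 carried one of 2 different short hairpin RNAs (shRNAs) against ASXL2, a chromatin regulator that associates with the BAP1 deubiquitinase, and were labelled SH2 and SH3. All groups were the same cell line. The labels' extraction text describes sorted marrow cells, and the cell line named as the source was taken as the source. The labels gave the numbers 1, 13 and 25 within each group without saying what they stand for. The study's methods call the 3 samples of a group biological replicates, without saying how they were obtained. In such bulk samples fewer cells of a type and less RNA per cell cannot be told apart.

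MHC class I molecules show peptides from inside the cell to CD8 T cells. Proteasomes cut proteins into peptides, the TAP transporter carries these into the endoplasmic reticulum, ERAP enzymes trim them, and they are loaded on a heavy chain such as HLA-B or HLA-C bound to B2M. Class II molecules, each an alpha and a beta chain guided by the invariant chain CD74, show peptides from endosomes to CD4 T cells. NLRC5 is the transactivator of class I genes and CIITA that of class II genes. Both act through RFX5, RFXAP and RFXANK, which bind the X box of MHC promoters beside NF-Y on the Y box. Myeloid progenitors carry class II, and it is usually low on granulocytes.

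The promoters of 7 members are printed because their readouts are described below. RefSeq promoter windows (GRCh38.p14) were matched for 33 of the 38 members and not for HLA-E, NLRC5, CIITA, HLA-DRA and CTSS. The 150 bases before the start are given 5′ to 3′ on the strand of the gene. Capitals mark matches, on either strand, to CTGATTGG (the Y box, bound by NF-Y), TGACG (the CRE core, as in the X2 box), GAAA followed after any 2 bases by GAAA (the core of an interferon-stimulated response element) or ATTGG (the short core inside the Y box). The X box as a whole was not searched for. In the printed stretches B2M, HLA-B, HLA-C and HLA-DRB1 hold a match to the Y box. HLA-DPB1 and CD74 hold only matches to its short core, and PSMB10 only one to the response element core. The sequences are those of the reference genome and not of SKNO-1.
B2M (chr15:44711367-44711516, plus strand): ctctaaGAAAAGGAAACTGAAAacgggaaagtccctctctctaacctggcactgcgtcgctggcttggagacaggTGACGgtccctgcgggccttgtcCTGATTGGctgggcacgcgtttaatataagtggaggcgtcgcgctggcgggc
HLA-B (chr6:31357180-31357329, minus strand): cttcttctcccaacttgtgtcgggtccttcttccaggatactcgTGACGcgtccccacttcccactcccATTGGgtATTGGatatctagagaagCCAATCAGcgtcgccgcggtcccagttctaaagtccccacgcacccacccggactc
HLA-C (chr6:31272093-31272242, minus strand): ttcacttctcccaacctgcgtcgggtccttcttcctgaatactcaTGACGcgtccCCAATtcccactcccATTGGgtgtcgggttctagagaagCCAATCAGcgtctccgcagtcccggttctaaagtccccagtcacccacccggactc
HLA-DRB1 (chr6:32589849-32589998, minus strand): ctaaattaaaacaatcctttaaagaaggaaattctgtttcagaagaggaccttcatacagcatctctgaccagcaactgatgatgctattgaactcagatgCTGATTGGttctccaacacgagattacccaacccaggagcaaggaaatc
HLA-DPB1 (chr6:33075840-33075989, plus strand): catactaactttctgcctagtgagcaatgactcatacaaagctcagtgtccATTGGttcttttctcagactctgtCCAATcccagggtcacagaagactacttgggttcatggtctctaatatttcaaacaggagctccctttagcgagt
CD74 (chr5:150412911-150413060, minus strand): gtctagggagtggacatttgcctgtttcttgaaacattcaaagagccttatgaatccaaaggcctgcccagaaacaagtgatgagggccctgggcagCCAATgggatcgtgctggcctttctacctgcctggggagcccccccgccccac
PSMB10 (chr16:67936851-67937000, minus strand): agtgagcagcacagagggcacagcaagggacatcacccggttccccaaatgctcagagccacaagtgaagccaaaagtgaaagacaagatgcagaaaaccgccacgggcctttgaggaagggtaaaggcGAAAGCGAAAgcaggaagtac

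Over the 250 bases before the start and both strands, CTGATTGG was found in 10 of the 33 matched members, against 4.59% of the 27305 genes with a window. The 10 were HLA-B, HLA-C, HLA-F, HLA-G, B2M, HLA-DRB1, HLA-DRB5, HLA-DQB1, HLA-DMA and RFX5. The response element core was found in 9 members, HLA-F, B2M, TAP1, TAP2, TAPBP, PSMB10, PSME2, ERAP2 and RFX5, against 3.71% of genes. TGACG was found in 12 members against 24.9% of genes. TTCNNNGAA, the core of a gamma-activated site, was found in 3 against 8.09%, and TGTGGT, the core bound by RUNX factors, in none against 13.2%. The short ATTGG, which lies inside CTGATTGG and was added after the sequences were seen, was found in 23 members, against 10102 of the 27305 genes. A match is a run of letters and not a shown binding site.

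Most members of the MHC region itself were barely counted in these files. In the interval from HLA-F to TAPBP (chr6:29690552-33282061, GRCh37, 3.59 Mb) lay 23 members. Only 9 of these passed the filter, while all 15 members elsewhere in the genome did. TAP1, PSMB9, HLA-DQA1, HLA-DQB1, HLA-DMB, HLA-DOA and HLA-DOB were listed at 0 in all 9 samples. The other genes of the interval were low as well. Of its 142 protein-coding genes, 22.5% passed the filter and 73.2% had a mean of under 3 counts, against 61.3% and 33.3% of the 855 genes on the rest of chromosome 6. Their median level was 0.00382 CPM (counts scaled to a common effective library size), against 3.01 CPM on the rest of the chromosome.

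Several genes that every cell uses were low inside the interval, though not all to the same degree. RPS18, a protein of the small ribosomal subunit, had 23 counts in all 9 samples together, and TUBB, a beta tubulin, had 113. BAG6, a chaperone, had 10, and CSNK2B, the regulatory subunit of casein kinase, had 9. BRD2, a widely expressed bromodomain protein, had 978 counts, at 2.74 to 4.42 CPM. Beyond the interval, the ribosomal protein genes RPS10 and RPL10A had 781 to 1303 CPM and 536 to 1177 CPM. A low or zero value inside the interval therefore cannot be read as a lack of expression here, and levels inside it are taken only as counts to be compared between samples. How reads that match several places were treated, or whether alternative MHC haplotypes were part of the reference, is not given in the sources used here, and their part in these values was not tested.

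**Figure D1:**
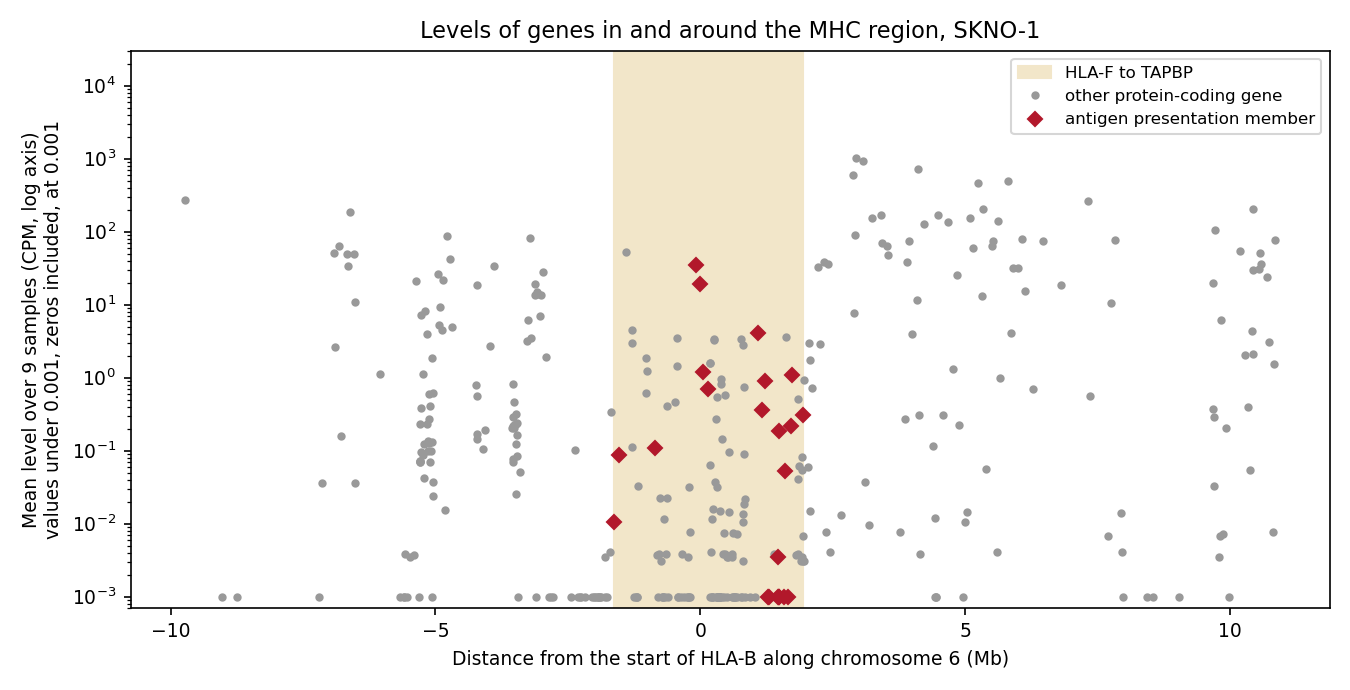
Mean level over the 9 samples of each protein-coding gene (y, CPM on a log axis, values under 0.001 drawn at 0.001) against its distance from the start of HLA-B along chromosome 6 (x, Mb). Diamonds are members, grey points other genes, and the shaded band runs from HLA-F to TAPBP: within it 3 of 142 genes exceed 10 CPM, and after it 27 of the 58 genes in an equal length do.

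In the EV samples the members outside the interval ordered by level per transcript length (RPKM, the CPM divided by the GENCODE canonical transcript length in kb) as follows. B2M, the light chain of class I, was highest at 1411 ± 179 RPKM (SD, n = 3), and CD74 followed at 243 ± 79.5. PSME1 and PSME2, which encode the proteasome activator PA28, had 193 ± 17.7 and 110 ± 4.16. The level of CD74 overlapped that of PSME1 within 1 SD, so these neighbours were not separated. PSMB10, a catalytic subunit of the immunoproteasome, had 62.7 ± 2.63, RFXANK 45.3 ± 5.27, RFX5 32.2 ± 2.04 and IFI30, a thiol reductase of lysosomes, 27.5 ± 1.84. ERAP1, ERAP2 and CTSS, the protease cathepsin S, lay between 15.4 and 20.6 RPKM with SDs of up to 3.96 and were not separated. RFXAP had 11.2 ± 0.228, NLRC5 3.28 ± 0.525 and CD1D, which presents lipids, 0.349 ± 0.0303. CIITA had 1.08 ± 0.371, a value that rests on an annotated length of 16061 bases and would be higher with a shorter transcript. The transactivators NLRC5 and CIITA thus had lower levels per length than every other of these members except CD1D.

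**Figure D2:**
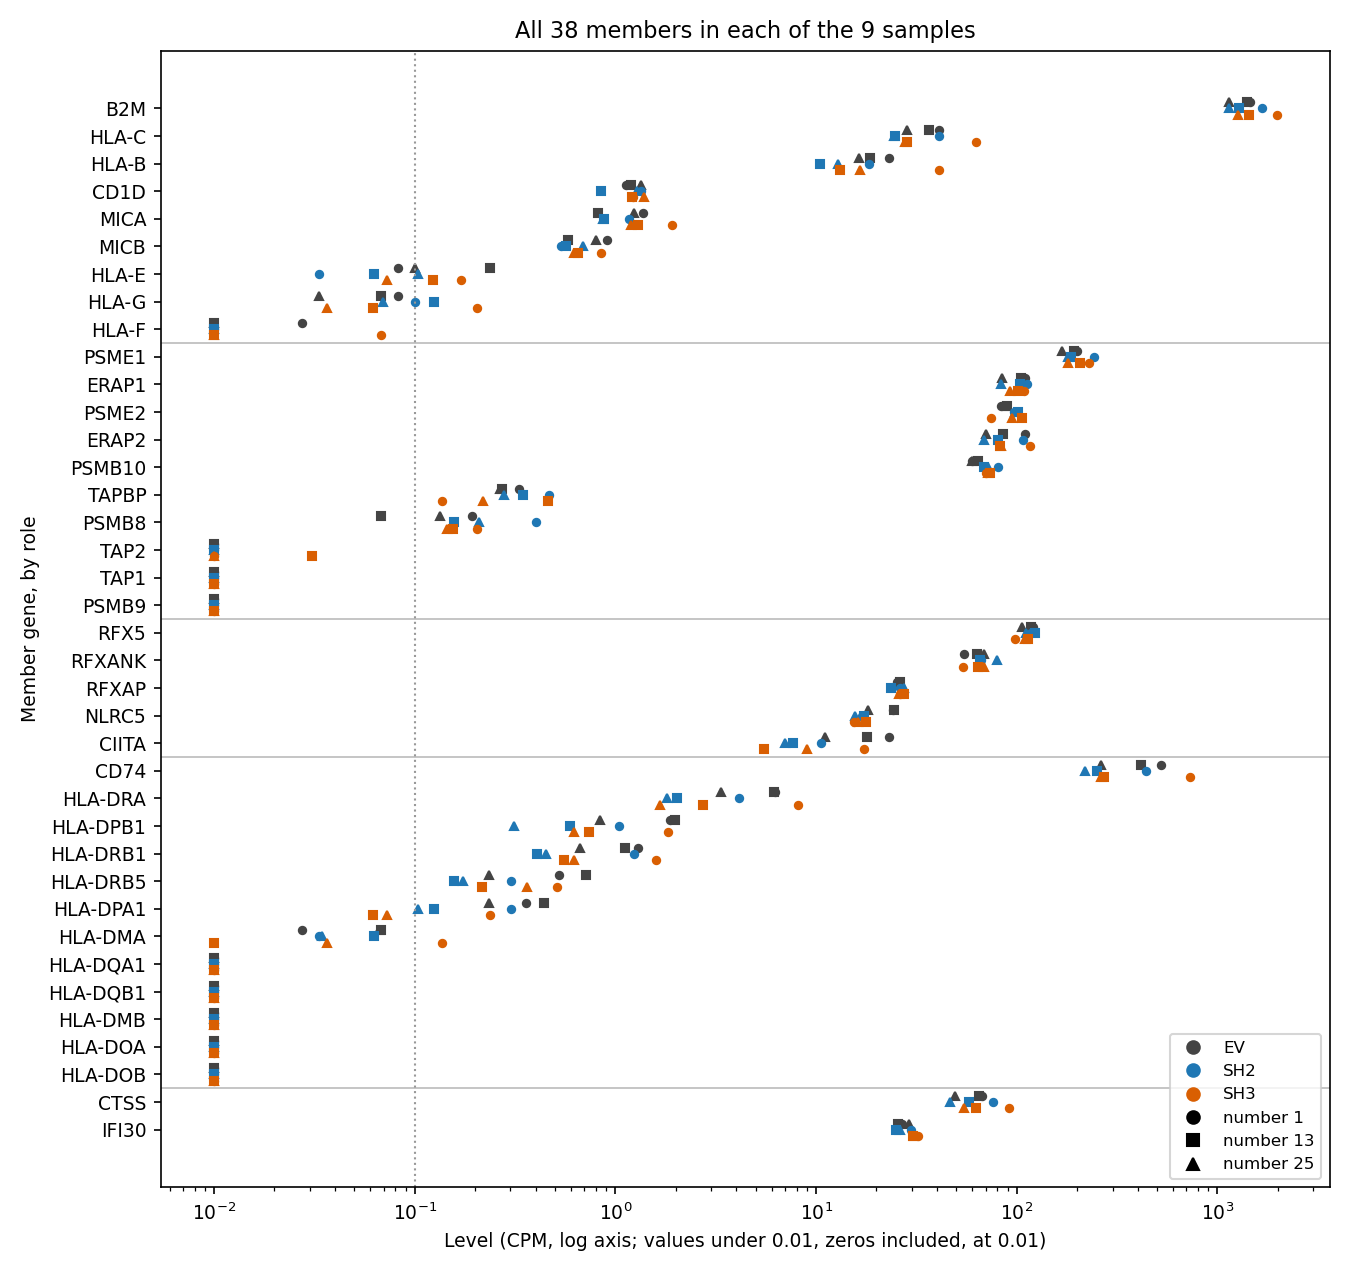
Level of all 38 members (y, ordered by role: class I and related chains, peptide supply, regulators, class II chains, processing enzymes) in each of the 9 samples (x, CPM on a log axis, values under 0.01 drawn at 0.01). Colours are groups, shapes are label numbers and the dotted line is at 0.1 CPM, near the 3-count limit; members range from 0 in all samples to 1972 CPM for B2M, with HLA-DRB5, TAPBP, HLA-DPA1 and PSMB8 between 0.0618 and 0.714 CPM.

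With 1 row per symbol, samples held 27714431 to 35406063 counts, so that 3 counts, the limit that a count of 0 allows, correspond to 0.0825 to 0.109 CPM (counting error only). ASXL2 (NM_018263, 2 at 25956622 to 26101356, GRCh37) had 67.9, 67.9 and 74.7 CPM in EV samples 1, 13 and 25, 30.4, 36.2 and 36.2 CPM in SH2, and 26.9, 29.1 and 41.1 CPM in SH3, with no overlap between EV and either shRNA. Of the line's markers, MPO, KIT, RUNX1T1 and PAX5 passed the filter, whereas CD34 was at 0.0680 to 0.309 CPM. PAX5, a B lineage factor that such lines can express, was lower with both shRNAs averaged in the paired fit described next (-0.79, SE 0.14, adjusted p = 0.0412). T cell markers summed to at most 0.173 CPM. Same-numbered samples deviated together, so that values are also given from a fit with the number as a block (the paired fit). The SH3 sample numbered 1 had the highest value of all 9 samples for HLA-B, HLA-C, B2M, CD74, HLA-DRA and CTSS.

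The first question was whether ASXL2 knockdown changed these genes. Without the block, edgeR called no member and no gene for SH2, SH3, their average or their difference (0% of 14199 genes in each), and DESeq2 called no member in any of the 4. At an unadjusted p under 0.05 there were 5 members for SH2 against 5.37% of all genes, 2 for SH3 against 5.09%, 3 for both shRNAs averaged against 6.63%, and 0 for SH3 against SH2 against 2.06%. The median log2 fold change of the 24 members was -0.06 for SH2, 0.05 for SH3 and 0.00 for both averaged, beside 0.01 over all genes in each of the 3. SH2 and SH3 were compared with the same EV samples, so their values are given side by side and not as independent evidence.

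In the paired fit 1 member passed the threshold in 1 contrast, NLRC5 for both shRNAs averaged (1.1% of all genes were called there, 0.845% as lower). For SH2, SH3 and their difference no member passed, beside 0.282%, 0.416% and 0.106% of genes. At an unadjusted p under 0.05 the paired fit gave 9, 5, 5 and 8 members for SH2, SH3, both averaged and SH3 against SH2, beside 18.7%, 18.7%, 20.4% and 11.9% of all genes. The counts at an unadjusted p were thus read only against these shares. DESeq2 with the block called 3, 2, 4 and 1 members in the same order, beside 3.27%, 4.04%, 4.96% and 1.24% of the genes to which it gave an adjusted p.

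NLRC5 (NM_032206, 16 at 57023397 to 57117443), the class I transactivator, was lower in every knockdown sample than in every EV sample. Its level was 24.1, 24.4 and 18.1 CPM in EV samples 1, 13 and 25, 16.8, 17.3 and 15.6 CPM in SH2, and 15.5, 17.8 and 16.2 CPM in SH3. EV and the knockdown groups did not overlap, although EV sample 25 lay close to the highest knockdown sample. NLRC5 was the only one of 24 members with this order, which 2.61% of all genes showed. Averaged over both shRNAs it fell by 0.42 on the log2 scale (SE 0.08, adjusted p = 0.0488, paired fit). Without the block the change was the same in size (SE 0.12) and was not called (adjusted p = 0.623). The call was lost when the paired fit was corrected for transcript length (log2 fold change -0.33, adjusted p = 0.117). It was also lost when any 1 sample other than SH3 sample 1 was left out (log2 fold change -0.53 to -0.34, adjusted p = 0.0605 to 0.353), and without SH3 sample 1 it held (adjusted p = 0.0111). Over 29 settings in edgeR or DESeq2 the lowest adjusted p was 0.00766 for both averaged, 0.0117 for SH2 and 0.0285 for SH3. Of these settings 4, 3 and 2 called NLRC5 in the same order. The highest adjusted p was 0.9996 for both averaged and for SH3.

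CIITA (NM_000246, 16 at 10960079 to 11036878), the class II transactivator, had 23.0, 17.9 and 11.1 CPM in EV, 10.5, 7.65 and 6.97 CPM in SH2, and 17.3, 5.50 and 9.03 CPM in SH3. All 3 SH2 samples lay below all 3 EV samples, while SH3 overlapped EV through its sample 1. Within each number, every knockdown sample was below its EV sample, at 42.7% to 62.6% of it in SH2 and 30.7% to 81.1% in SH3. Averaged over the shRNAs, CIITA had a log2 fold change of -0.90 (SE 0.19), just short of the threshold in the paired fit (adjusted p = 0.0531) and past it with DESeq2 and the block (adjusted p = 0.000189). With the length correction it was -0.68 (adjusted p = 0.142), a correction that uses the long annotated length of CIITA.

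The subunits of the RFX complex, through which both transactivators act, differed little. RFX5 had 120, 118 and 107 CPM in EV, 118, 123 and 112 CPM in SH2, and 97.7, 114 and 110 CPM in SH3, and the groups overlapped. Its averaged log2 change was -0.03 (SE 0.07). RFXAP stayed between 23.8 and 27.5 CPM in all 9 samples with an averaged change of 0.02 (SE 0.07), and RFXANK between 54.0 and 79.3 CPM with 0.09 (SE 0.06). None passed the test.

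Class II chains that could be tested had lower means with both shRNAs except CD74 in SH3, but none passed the test in edgeR with all samples and the low-count filter. HLA-DRA (NM_019111), the alpha chain of HLA-DR, had 6.27, 6.16 and 3.37 CPM in EV, 4.15, 2.04 and 1.80 CPM in SH2, and 8.10, 2.72 and 1.67 CPM in SH3. Samples 13 and 25 of both shRNAs were below all EV samples, and SH3 sample 1 was the highest of all. The averaged log2 change in the paired fit was -0.79 (SE 0.23, adjusted p = 0.106). With DESeq2 and the block HLA-DRA was called for both shRNAs averaged (-0.81, SE 0.24, adjusted p = 0.0265) and for SH2 (-1.06, SE 0.29, adjusted p = 0.0138), and with the block and no filter in edgeR for both averaged (adjusted p = 0.0301).

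HLA-DPB1 (NM_002121), a beta chain of HLA-DP, had 1.87, 1.97 and 0.834 CPM in EV, 1.04, 0.595 and 0.312 CPM in SH2, and 1.84, 0.741 and 0.619 CPM in SH3. It was lower than the EV sample of its number in all 6 pairs. Among the members past the filter this order was shared with NLRC5 and CIITA, and 11.6% of all genes showed it. The averaged log2 change was -0.95 (SE 0.24, adjusted p = 0.0815, paired fit). The paired fit with no filter called HLA-DPB1 (adjusted p = 0.0325), and DESeq2 with the block gave it no adjusted p. These levels rest on 9 to 68 counts per sample.

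HLA-DRB1 (NM_001243965), the main DR beta chain, had 1.29, 1.12 and 0.667 CPM in EV, 1.24, 0.407 and 0.451 CPM in SH2, and 1.60, 0.556 and 0.619 CPM in SH3, and the groups overlapped. Its averaged change was -0.42 (SE 0.26). HLA-DRB5, a near copy of HLA-DRB1 with which reads could be shared, ranged from 0.157 to 0.714 CPM with an averaged change of -0.81 (SE 0.38, adjusted p = 0.254). Counts of these genes are uncertain for that reason. A second HLA-DRB1 row, NM_002124, held 59 counts over all samples, against 245 for the row used.

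CD74 (NM_001025159, 5 at 149781200 to 149792532), the invariant chain, had 525, 415 and 263 CPM in EV, 441, 253 and 219 CPM in SH2, and 726, 272 and 264 CPM in SH3. The groups overlapped and SH3 sample 1 was the highest. Its averaged change was -0.23 (SE 0.13). HLA-DPA1 and HLA-DMA did not pass the filter, with 60 and 14 counts over all samples. HLA-DPA1, at 2 to 13 counts per sample, was lower than EV in CPM in all 6 pairs.

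The class II calls depended on the tool and the filter, as above, and on the SH3 sample numbered 1. Without that sample the paired fit called 9 of 25 members for both shRNAs averaged, where it called 12.3% of all genes, 7.19% as lower and 5.09% as higher. The members were CIITA, HLA-DRA, HLA-DPB1, HLA-DPA1, CD74, HLA-B and NLRC5 as lower and PSMB10 and PSME2 as higher. HLA-DRA was then 2.004-fold lower (adjusted p = 0.00383), and CIITA had a log2 change of -1.03 (SE 0.16, adjusted p = 0.00318). With all 3 samples numbered 1 left out, 4 of 24 members were called beside 2.63% of genes, all lower: HLA-DRA (-1.19, SE 0.17), HLA-DPB1 (-1.31, SE 0.28), CIITA (-0.99, SE 0.18) and CD74 (-0.41, SE 0.09). The NLRC5 change was then -0.34 (SE 0.09, adjusted p = 0.0515). Both fits were chosen after the data were seen.

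**Figure D3:**
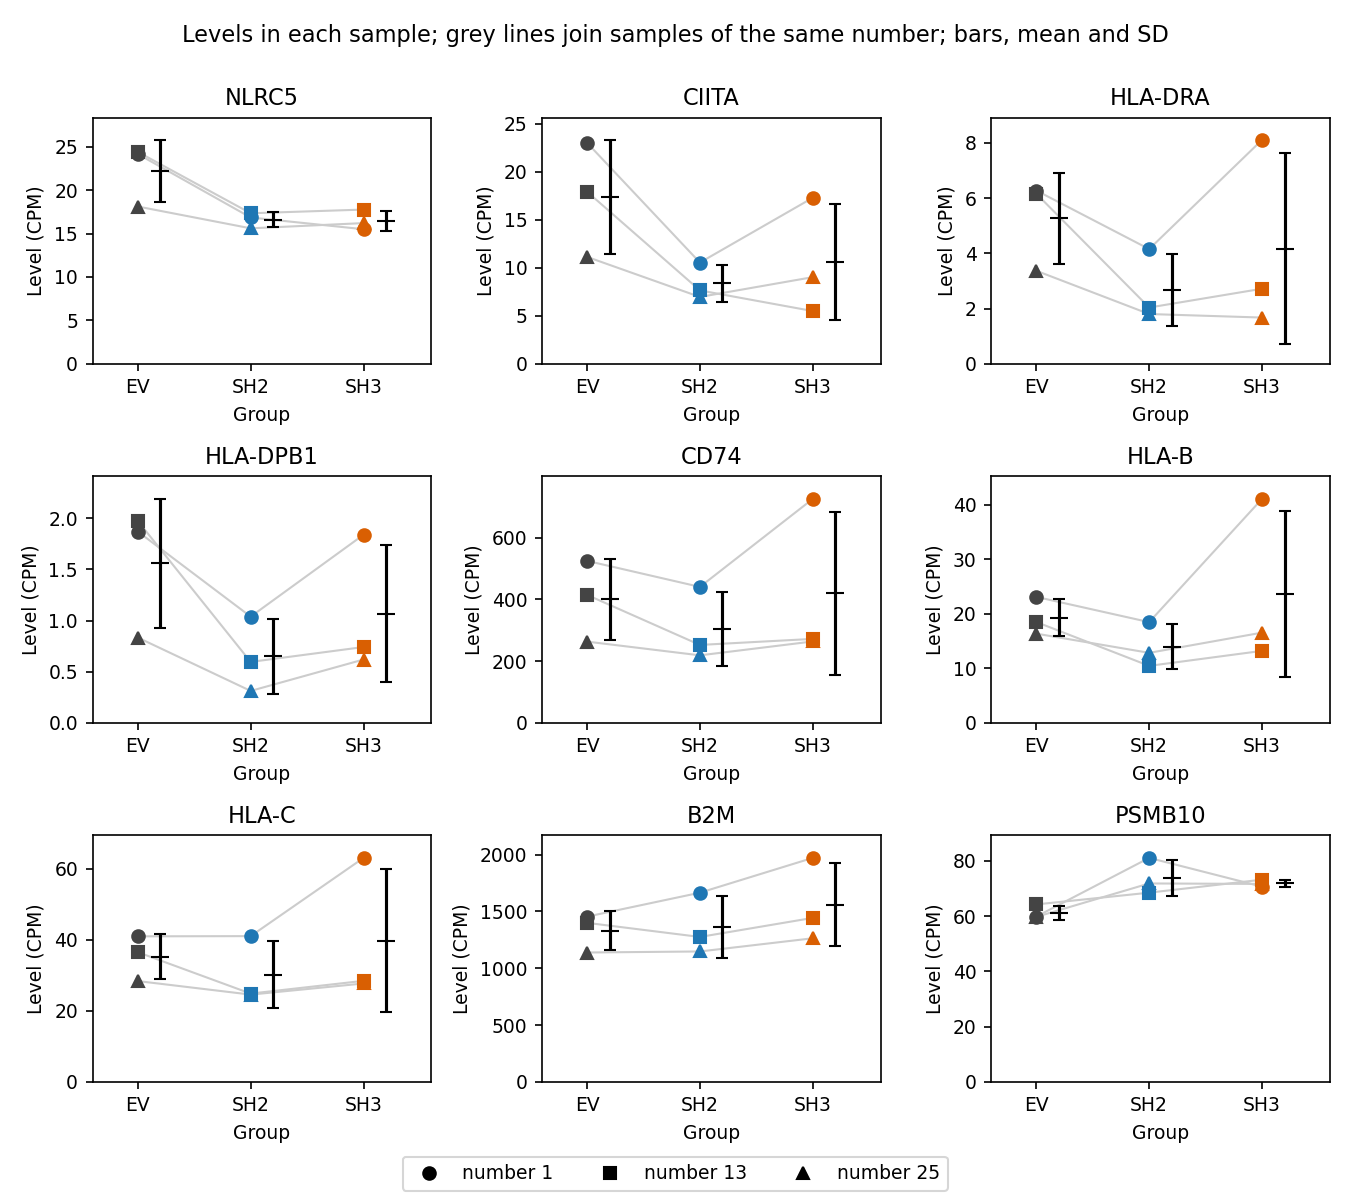
Level (y, CPM) of 9 members by group (x), with shapes for the label numbers, grey lines between samples of the same number and bars for the mean and SD of 3 samples. NLRC5 is lower and PSMB10 higher in all 6 knockdown samples than in all 3 EV samples, whereas SH3 sample 1 is the highest point for HLA-DRA, CD74, HLA-B, HLA-C and B2M.

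Class I chains showed no change past the test. B2M (NM_004048, 15 at 45003556 to 45011049) had 1455, 1400 and 1139 CPM in EV, 1665, 1276 and 1148 CPM in SH2, and 1972, 1443 and 1264 CPM in SH3, and the groups overlapped. Its averaged log2 change was 0.12 (SE 0.08, adjusted p = 0.444, paired fit). HLA-B (NM_005514) had 23.1, 18.5 and 16.3 CPM in EV, 18.4, 10.4 and 12.8 CPM in SH2, and 41.0, 13.2 and 16.5 CPM in SH3. SH3 sample 1 again stood above all others, and the averaged change was -0.18 (SE 0.17).

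HLA-C (NM_001243042) had 40.9, 36.5 and 28.3 CPM in EV, 41.0, 24.8 and 24.5 CPM in SH2, and 63.0, 28.4 and 27.7 CPM in SH3, with an averaged change of -0.09 (SE 0.13). HLA-B and HLA-C are near-identical in much of their sequence, so their counts could be split or lost between them. Of the chains under the filter, HLA-E had 1 to 7 counts per sample, HLA-G 1 to 6 and HLA-F 0 to 2. MICA and MICB, stress ligands of the NKG2D receptor, ranged from 0.536 to 1.91 CPM with averaged changes of 0.07 (SE 0.19) and -0.22 (SE 0.23). CD1D ranged from 0.846 to 1.38 CPM with -0.01 (SE 0.19).

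Among the genes of peptide supply PSMB10 (NM_002801, 16 at 67968409 to 67970767) was the only member with all 6 knockdown samples above all 3 EV samples, an order that 2.16% of all genes showed. Of the 24 members past the filter it was also the only one higher in all 6 pairs, as were 11.6% of genes. It had 59.8, 64.2 and 59.7 CPM in EV, 81.1, 68.5 and 71.8 CPM in SH2, and 70.7, 73.2 and 71.6 CPM in SH3. The averaged log2 change was 0.25 (SE 0.07) and missed the threshold in the paired fit (adjusted p = 0.0884). With DESeq2 and the block it passed (adjusted p = 0.0439).

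The other immunoproteasome subunits, PSMB8 and PSMB9, lie inside the MHC interval. PSMB8 had 7, 2 and 4 counts in EV, 12, 5 and 6 in SH2 and 6, 5 and 4 in SH3, higher than EV in CPM in all 6 pairs but under the filter, and PSMB9 was at 0. TAP1 was at 0 and TAP2 had 1 count in all samples together, so the transporter could not be compared. TAPBP, the tapasin that holds TAP and class I together, had 4 to 15 counts per sample. PSME1 ranged from 168 to 243 CPM and PSME2 from 74.7 to 106 CPM, with averaged changes of 0.13 (SE 0.06) and 0.13 (SE 0.08). ERAP1 and ERAP2 had 0.01 (SE 0.06) and 0.02 (SE 0.06).

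The processing enzymes did not pass the test either. CTSS (NM_004079), which cleaves the invariant chain in endosomes, had 67.4, 65.0 and 49.3 CPM in EV, 76.0, 57.9 and 46.7 CPM in SH2, and 91.1, 62.8 and 54.3 CPM in SH3, with an averaged change of 0.07 (SE 0.08). IFI30 (NM_006332), which reduces disulfide bonds of antigens, had 26.9, 25.5 and 29.1 CPM in EV, 29.6, 24.9 and 26.2 CPM in SH2, and 32.3, 30.3 and 30.8 CPM in SH3. All 3 SH3 samples were above all EV and SH2 samples. The log2 change of SH3 against EV was 0.20 (SE 0.08, adjusted p = 0.217, paired fit).

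Between the shRNAs, 18 of the 24 members were higher with SH3 than with SH2, with a median log2 difference of 0.20 beside 0.00 over all genes, and none passed the test in edgeR with or without the block. HLA-B had the smallest p of the members in the paired fit (0.66, SE 0.20, adjusted p = 0.252), followed by IFI30 (0.21, SE 0.08, adjusted p = 0.339) and MICA (0.59, SE 0.22, adjusted p = 0.347). MICA had 1.38, 0.816 and 1.23 CPM in EV, 1.17, 0.878 and 0.866 CPM in SH2, and 1.91, 1.30 and 1.20 CPM in SH3, with every SH3 sample above every SH2 sample. HLA-B was called with DESeq2 and the block (0.65, SE 0.19, adjusted p = 0.0406), the 1 member so called. Without SH3 sample 1 no member was called in the paired fit and 0.721% of genes were, and the HLA-B difference was 0.30 (SE 0.12) in that fit and 0.09 without the block. The median over the members was then 0.11 in the paired fit, with 21 of 25 higher, and -0.04 without the block, with 10 of 25 higher. The median and the share of higher genes over all genes are not given here for these fits. Their counts are thus not read as a result about the members.

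The second question was how the label numbers differed. Samples numbered 1 stood apart from those numbered 13 and 25. In a fit with the group as a term, 13 of the 24 members passed the test, 12 higher and 1 lower in number 1. Of all genes 46.3% were called, 24.1% higher and 22.2% lower, so a call as such was common here. The median log2 difference was 0.34 over the members and 0.01 over all genes.

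Of the class II chains tested all but HLA-DRB5 (0.56, SE 0.38, adjusted p = 0.241) were called. HLA-DRA was higher in number 1 by 1.16 (SE 0.23, adjusted p = 0.0029), HLA-DRB1 by 1.14 (SE 0.25, adjusted p = 0.00493), HLA-DPB1 by 1.03 (SE 0.24, adjusted p = 0.00656) and CD74 by 1.01 (SE 0.13, adjusted p = 0.000482), all on the log2 scale. Their regulator CIITA was higher by 0.82 (SE 0.19, adjusted p = 0.00565), and this call was lost without the group term (adjusted p = 0.0724), as was that of HLA-DPB1 (adjusted p = 0.0658). CD74 and HLA-DRB1 were higher in all 3 samples numbered 1 than in the other 6, while for HLA-DRA and CIITA the numbers overlapped. NLRC5, the class I regulator, differed by 0.04 (SE 0.09), RFX5 by -0.03 (SE 0.07) and RFXAP by -0.02 (SE 0.07), without passing the test. RFXANK was the 1 member called as lower (-0.23, SE 0.06, adjusted p = 0.0117). That call was lost without the group term (adjusted p = 0.0522) and without EV sample 1 (adjusted p = 0.063).

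The class I chains HLA-B, HLA-C and B2M and the trimming enzymes ERAP1 and ERAP2 were also higher in number 1. HLA-B differed by 0.87 (SE 0.17, adjusted p = 0.00242), HLA-C by 0.76 (SE 0.12, adjusted p = 0.00124) and B2M by 0.41 (SE 0.08, adjusted p = 0.0029). Without SH3 sample 1 HLA-B differed by 0.53 (adjusted p = 0.0021) and HLA-DRA by 0.73 (adjusted p = 0.0061), changes in size by more than 1.5 times. ERAP2 had the smallest p of the members (0.51, SE 0.06, adjusted p = 0.000369). It had 111, 85.6 and 70.2 CPM in EV samples 1, 13 and 25, 108, 80.5 and 68.6 CPM in SH2, and 117, 82.3 and 83.6 CPM in SH3, so that number 1 was above the rest throughout.

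CTSS was higher by 0.48 (SE 0.07, adjusted p = 0.00098), PSME1 by 0.27 (SE 0.06) and ERAP1 by 0.21 (SE 0.06), a call lost without SH2 sample 1 (adjusted p = 0.0589). PSME1 had 201, 192 and 168 CPM in EV, 243, 187 and 180 CPM in SH2, and 230, 207 and 180 CPM in SH3. ERAP1 had 109, 105 and 84.6 CPM in EV, 113, 104 and 83.4 CPM in SH2, and 108, 102 and 93.0 CPM in SH3. RFXANK had 54.6, 63.5 and 69.0 CPM in EV, 66.6, 65.8 and 79.3 CPM in SH2, and 54.0, 64.2 and 68.5 CPM in SH3, lowest in number 1 in EV and SH3 but not in SH2. HLA-C, B2M, ERAP1, ERAP2, CD74, HLA-DRB1 and CTSS were the 7 members with all samples numbered 1 above the other 6, an order found in 14.4% of all genes. No member had the opposite order, which 12.1% of genes showed. PSMB10 (0.04, SE 0.07) and IFI30 (0.09, SE 0.07) did not pass. MICA (0.49, SE 0.19, adjusted p = 0.0514), MICB (0.23, SE 0.23), CD1D (0.04, SE 0.19) and TAPBP (0.03, SE 0.38) did not pass either. PSME2 was lower without passing (-0.18, SE 0.08, adjusted p = 0.0691).

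**Figure D4:**
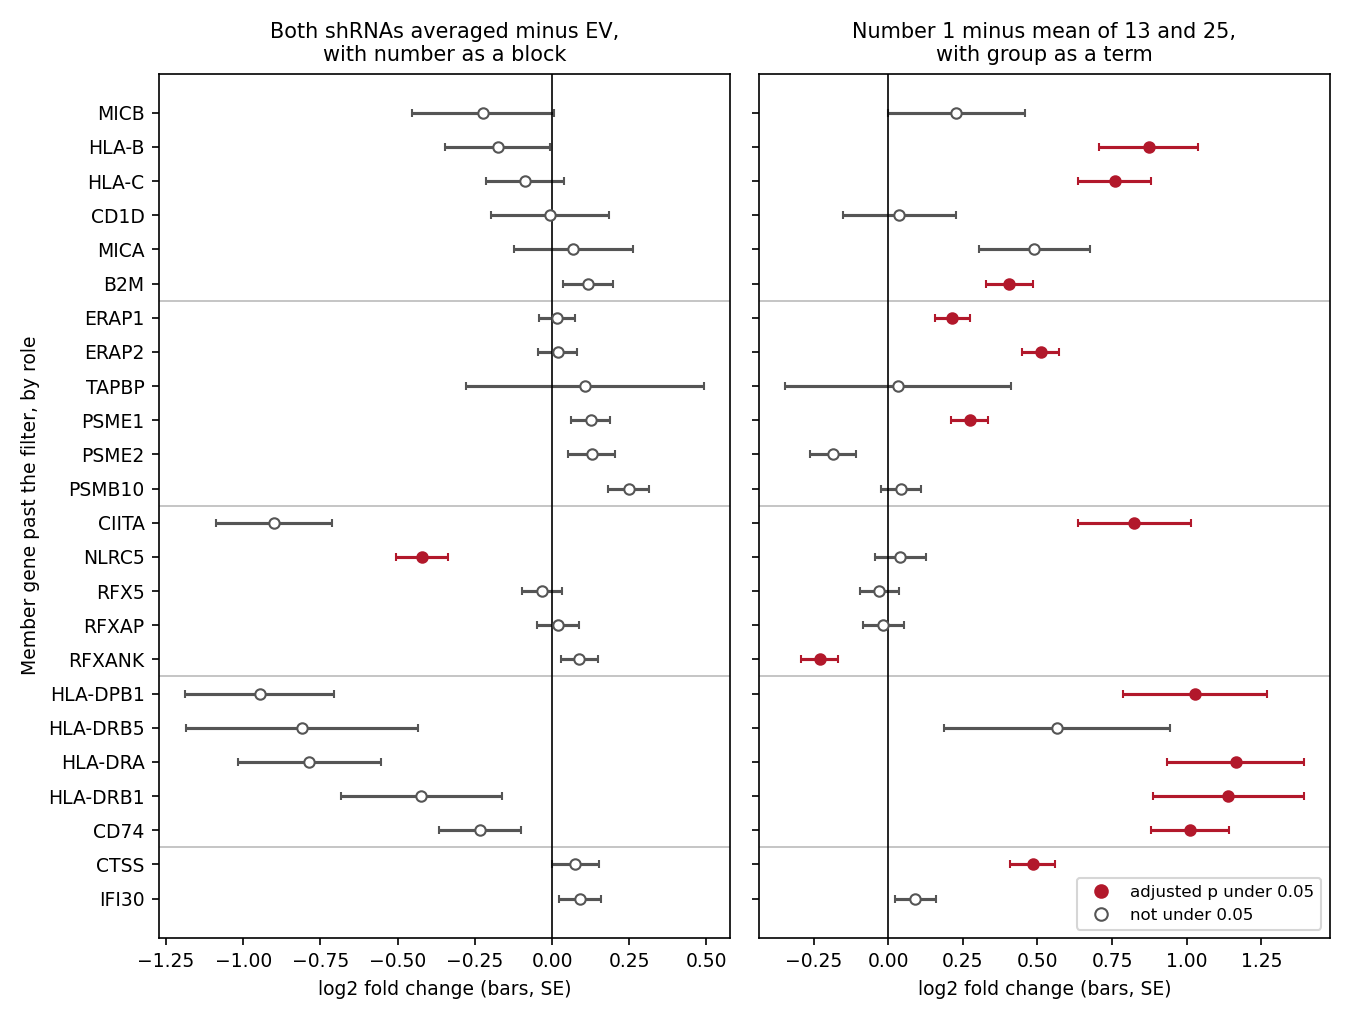
Log2 fold change (x, bars SE) of the 24 members past the filter (y, by role) for both shRNAs averaged against EV in the paired fit (left) and for number 1 against the mean of 13 and 25 with the group as a term (right). Filled points passed the test in edgeR: NLRC5 on the left, and on the right 12 members to the right of 0 and RFXANK to the left.

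Between numbers 25 and 13 no member passed the test in edgeR, beside 5.87% of all genes, and 7 members had an unadjusted p under 0.05, beside 23.8% of genes. DESeq2 called 2 of them, ERAP1 (adjusted p = 0.0365) and CTSS (adjusted p = 0.0426), beside 7.34% of the genes to which it gave an adjusted p. In edgeR ERAP1 differed by -0.26 (SE 0.07, adjusted p = 0.0526), CTSS by -0.31 (SE 0.09, adjusted p = 0.0647) and HLA-DPB1 by -0.86 (SE 0.32, adjusted p = 0.131) on the log2 scale. B2M, PSME1, ERAP1, RFX5 and CTSS had all 3 samples numbered 25 below all 3 numbered 13, an order found in 15.7% of all genes. The median difference of the members was -0.15, beside 0.00 over all genes. Without SH3 sample 1 edgeR called 4 members, among them CTSS (adjusted p = 0.00831) and ERAP1 (adjusted p = 0.00917), without SH3 sample 13 it called 2, and without EV sample 1 it called 1. The share of all genes called in these fits with a sample left out is not given here.

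Other genes of antigen presentation were counted from a separate list, of which 26 passed the filter. For the knockdown contrasts none passed the test in edgeR with or without the block. Without it, 2, 1, 2 and 0 had an unadjusted p under 0.05 for SH2, SH3, both averaged and SH3 against SH2, and DESeq2 called none. DESeq2 with the block called 2, 1, 2 and 0. These counts are to be read beside the shares of all genes given above for the same fits. The smallest p-values for both shRNAs averaged without the block were those of ULBP1, another NKG2D ligand (0.87, SE 0.27), and CTSL, the protease cathepsin L (0.66, SE 0.28). CTSL had 2.17, 2.48 and 4.07 CPM in EV, 3.42, 5.01 and 6.52 CPM in SH2, and 3.17, 4.69 and 4.88 CPM in SH3. In the paired fit their adjusted p-values in edgeR were 0.0628 for ULBP1 and 0.0531 for CTSL. For SH3 against SH2 the smallest were MARCH8, a ubiquitin ligase (0.23, SE 0.17), and NFYC, a subunit of NF-Y (-0.12, SE 0.09).

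For number 1 against the others 15 of the 26 passed, 5 higher and 10 lower, beside the 46.3% of all genes given above (24.1% higher, 22.2% lower). The constitutive proteasome subunits, which the immunoproteasome subunits replace, were lower: PSMB5 by -0.42 (SE 0.07), PSMB6 by -0.67 (SE 0.09) and PSMB7 by -0.35 (SE 0.07). PSME3, an activator of nuclear proteasomes, was lower by -0.69 (SE 0.11), and so were the cathepsins CTSB (-0.21), CTSD (-0.42) and CTSL (-0.64). PDIA3 (-0.22) and SPPL2A (-0.19), which helps to degrade the CD74 stub, were lower too. Higher were MR1, which presents microbial metabolites (0.75, SE 0.08), LGMN, an asparaginyl protease (1.60, SE 0.30), RAET1E (0.71, SE 0.15), FCGRT (0.47, SE 0.12) and IRF2 (0.35, SE 0.07). LGMN was counted at 0.953 CPM at most. For number 25 against 13, IRF1 (-0.58, SE 0.09, adjusted p = 0.0063) and MARCH8 (-0.44, SE 0.07, adjusted p = 0.00657) passed.

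Interferon-induced genes moved with number 1 as well. Of 8 that passed the filter, 7 were higher in number 1. IFIT2 was at 1.79 (SE 0.26), GBP4 at 1.56 (SE 0.20), IFIT1 at 1.41 (SE 0.20) and ISG15 at -0.03 (SE 0.18). Of all genes 24.1% were called as higher in that contrast. In SH3 sample 1 IFIT2 had 14.8 CPM, against 4.21 and 5.99 CPM in EV and SH2 sample 1. GBP2 had 54.5 CPM there, against 19.6 and 20.2 CPM, whereas GBP4 had 1.80 CPM, against 2.26 and 2.21 CPM. Of the 8 none passed in the knockdown contrasts (SH2, SH3, both averaged, SH3 against SH2) in edgeR or DESeq2, with or without the block. In edgeR without the block 1, 0, 1 and 1 had an unadjusted p under 0.05, beside 5.37%, 5.09%, 6.63% and 2.06% of all genes. Markers of monocytes and macrophages summed to 6.63, 7.40 and 14.6 CPM in sample 1 of EV, SH2 and SH3. In the other 6 samples they summed to 4.42 to 6.26 CPM. FCGR1A and CSF1R made up most of the sum, with CD14 at 3 counts or fewer per sample and MARCO at 0. FCGR1A had 10.6 CPM in SH3 sample 1, but 4.43 and 4.46 CPM in EV samples 1 and 13. CSF1R had 2.15, 2.48 and 3.98 CPM in sample 1 of EV, SH2 and SH3, and at most 1.97 CPM in the others. Dendritic cell markers summed to 3.52 to 7.63 CPM in number 1 and 2.25 to 5.16 CPM in the others, with XCR1 at 0. This sum joined genes that differed in opposite directions. ITGAX had 2.89, 3.08 and 5.99 CPM in sample 1 of EV, SH2 and SH3, and at most 2.70 CPM in the others. BATF3 had 0.550, 1.17 and 1.57 CPM there, against 1.08 to 2.73 CPM in the others. Its log2 difference was -0.70 (SE 0.29, adjusted p = 0.0672) in edgeR. B cell markers, nearly all CD79B, summed to 50.3 to 67.5 CPM and overlapped between numbers, with MS4A1 at 0. The part of these genes in the differences of the members was not tested.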

How the data were processed

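Poly(A) RNA of 9 SKNO-1 samples was sequenced with unstranded libraries. The authors deposited 1 table of raw read counts per sample, with 48104 RefSeq transcript rows, and the submitters' processing notes name STAR, featureCounts, DESeq2 and the build hg19, without versions or roles. How reads matching several places were treated is not given in the sources used here. The row with the highest total was kept for each of 25680 symbols, so that overlapping transcripts were not counted more than once. Samples then held 27714431 to 35406063 counts. Samples were grouped by the labels.

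Counts were tested in R 4.3.3 with edgeR 4.0.16 (TMM normalisation, filterByExpr with a minimum count of 10, quasi-likelihood F test, Benjamini-Hochberg adjustment over all 14199 genes, threshold 0.05, two-sided). One fit over the 3 groups gave the knockdown contrasts, and a fit with group and number as terms gave the contrasts of numbers. The labels give each group the numbers 1, 13 and 25. The 9 same-numbered pairs of samples had correlated deviations from their group means (r 0.398 to 0.731), the 18 other pairs r -0.616 to 0.306, and a fit with the number as a block was therefore given beside the first. CPM used the TMM-scaled library. Genomic positions and lengths came from GENCODE on GRCh37, and promoter sequences from RefSeq on GRCh38.p14. Scripts were tested on simulated data. DESeq2 1.42.0, other size factors, filters, a length correction and leaving out samples were alternatives.

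Members and lists were chosen with earlier results of these data known. Values by sample were given for members past the threshold in a contrast, for the 3 with the smallest p in each contrast and for 16 set members, with the rest by range. From the other list of antigen presentation genes, most of those past the threshold were named, and where none passed, the 2 with the smallest p. Some genes of these lists are not reported here by name.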

Additional observations from a re-analysis of the deposited data

How the results depend on the processing

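With the replicate block (the numbers as pairs), the count of members called rose from 0 to 1 for both shRNAs averaged. The share of all genes called there rose from 0% to 1.1%. The count of members was 0 for the other knockdown contrasts. With the block and DESeq2 it was 3 for SH2, 2 for SH3, 4 for both averaged and 1 for SH3 against SH2. Of the genes to which DESeq2 gave an adjusted p, 3.27%, 4.04%, 4.96% and 1.24% were called in the same order. With the block and no filter the count of members was 4, 2, 4 and 0. Leaving out 1 sample at a time from the block gave 0 to 7 members for SH2, 0 to 2 for SH3, 0 to 9 for both averaged and 0 to 1 for SH3 against SH2, with the highest of the first 3 without SH3 sample 1. Without SH3 sample 1 the block called 12.3% of all genes for both averaged, against 1.1% with all samples. Without the samples numbered 1 the count of members was 5, 2 and 4 for SH2, SH3 and both averaged. For both averaged 2.63% of all genes were then called. The block with other size factors or with the length correction called none. Without the block every alternative called 0 members in the knockdown contrasts. For number 25 against 13 the count was 1 with the length correction, 2 with DESeq2, 1 with no filter, 1 with a minimum count of 50, and 0 to 4 with 1 sample left out, the most without SH3 sample 1. For number 1 the count stayed within 10 to 14. In edgeR with all samples 5.87% of all genes were called for number 25 against 13 and 46.3% for number 1. Shares of all genes are not given in this section for the other settings. The counts there are thus not read as a result about the members. The ASXL2 difference between SH3 and SH2, -0.08 on the log2 scale, changed sign without SH3 sample 1 (0.030), and leaving out 1 sample gave -0.29 to 0.030. The causes were not tested. Members under the filter were limited by their counts.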
